A study of Mus musculus with 20 samples.

Results

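Chromatin accessibility was described at 8 genes of the fibroblast growth factor (FGF) and ERK signalling pathway in mouse embryonic stem cells that carried a wild-type or a mutant CTCF. The genes were the ligand gene Fgf4, the receptor genes Fgfr1 and Fgfr2, the inhibitor genes Spry2, Spry4 and Dusp6, and the transcription factor genes Etv4 and Etv5. They were chosen by name, as 8 of 21883 annotated protein-coding genes, and a peak was assigned to a gene when it overlapped the gene body or the 20 kb on either side. The mutant lists held 91 (R448Q) to 119 (H455R) such peaks, and the WT list held 119 of its 171719 peaks there.

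The cells were E14Tg2a, a mouse embryonic stem cell line, modified so that an auxin removes the cell's own CTCF. This protein binds DNA through zinc fingers and anchors chromatin loops together with cohesin. Each of 9 mutant groups expressed a Ctcf transgene with a single substitution, R339Q, R342C, S354F, K365T, R377C, R377H, Q418R, R448Q or H455R, and the control group expressed a WT transgene. Every group, WT included, was kept for 2 days with doxycycline at 1 µg/ml, which turns the transgene on, and with the auxin indole-3-acetic acid at 500 µM, so no list comes from untreated cells. The medium of every group held serum (15%), LIF, 3 µM CHIR99021, which inhibits the kinase GSK3, and 1 µM PD0325901, which inhibits MEK, the kinase directly above ERK. Each genotype was 1 engineered line, and a property of the line cannot be told apart from its CTCF substitution. Accessible DNA was profiled by Omni-ATAC-seq, which marks open chromatin by transposase insertion, from 2 replicates per genotype that the authors combined into 1 peak list. No replicate spread could therefore be measured, no test between genotypes was possible, and all differences given are descriptions of 10 lists. The sources used here do not say whether replicates were separate cultures.

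FGF4 is secreted by naive embryonic stem cells and acts on the receptor tyrosine kinases FGFR1 and FGFR2, which signal through RAS, RAF and MEK to ERK. Active ERK pushes these cells out of the naive state, and it induces its own brakes: the sprouty proteins SPRY2 and SPRY4, which act on the pathway at or above RAF, and DUSP6, a phosphatase that removes the activating phosphates from ERK. ETV4 and ETV5, ETS-family transcription factors, are induced by the same signal and carry it to target genes.

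Lists differed in length, with 121032 (R339Q) to 159957 (H455R) peaks in the mutants and 171719 in WT. They also differed in background coverage, a measure of depth computed from the authors' fold values, which was 3.49 (K365T) to 5.45 (R448Q) in the mutants and 5.96 in WT. The strength of a peak is given as its percentile, the percentage of peaks in its own list with a fold value no higher than its own. Because lists differ in length and depth, a difference in percentile describes ranks and does not show a change in accessibility. A WT peak was called missing when no peak of the mutant list overlapped it by at least 1 bp, which does not show that the site was closed. In cells measured in bulk, fewer cells with an open site and a less open site in each cell cannot be told apart. Gene ends of all 8 embryonic stem cell markers tested, among them Pou5f1 and Nanog, carried a peak in all 10 lists. Gene ends of other lineages were often accessible too, with peaks at 2 to 3 of 4 primitive endoderm, 3 of 3 mesoderm, 2 to 3 of 3 neural, 3 to 4 of 4 fibroblast and 1 to 3 of 3 trophoblast markers, so an accessible gene end did not mark the cell type.

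All 8 genes kept an accessible gene end in every mutant. Within 1 kb of an annotated end, 0 of 72 gene-by-mutant pairs were without a peak, against 3.54% of such pairs over all protein-coding genes with a gene-end peak in WT. Whether 0 of 72 differs from that share beyond chance was not tested. The strongest gene-end site of each gene stood at a WT percentile of 34.6 (Fgf4) to 91.3 (Dusp6). The part of peak strength in the count of 0 was not tested either, so the count is not shown to be particular to these genes. The strongest gene-end sites were those of Etv5, Dusp6, Fgfr1 and Fgfr2. The Etv5 site (chr16:22439408-22440108) stood at percentiles of 90.9 to 93.7 in the mutants, with a median of 92.7, and 90.0 in WT. The Dusp6 site (chr10:99262883-99263729) stood at 85.1 to 92.6, median 90.3, in the mutants and 91.3 in WT. Both sites were thus among the strongest in each list, and the WT value lay within the mutant range for Dusp6 and below it for Etv5.

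The Fgfr1 site (chr8:25518548-25519826) stood at 82.5 to 86.0, median 84.8, in the mutants and 84.0 in WT. The Fgfr2 site (chr7:130265722-130266729) stood at 78.0 to 89.0, median 84.5, in the mutants and 86.5 in WT. Sprouty gene ends were weaker, at 68.4 to 82.9, median 79.2, in the mutants and 77.1 in WT for Spry4 (chr18:38600897-38602988), and at 57.9 to 69.2, median 62.1, in the mutants and 67.1 in WT for Spry2 (chr14:105896978-105898086). For each of these 4 genes the WT value lay within the mutant range.

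At Etv4 (chr11:101784279-101785706) the site stood at 67.0 to 81.7, median 78.5, in the mutants and 66.0 in WT, so each of the 9 mutant percentiles lay above the WT value. The Fgf4 site (chr7:144860972-144861505), at the start of the ligand gene, was the weakest of the 8, at 21.9 (K365T) to 47.9 (R377C), median 33.6, in the mutants and 34.6 in WT.

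**Figure D1:**
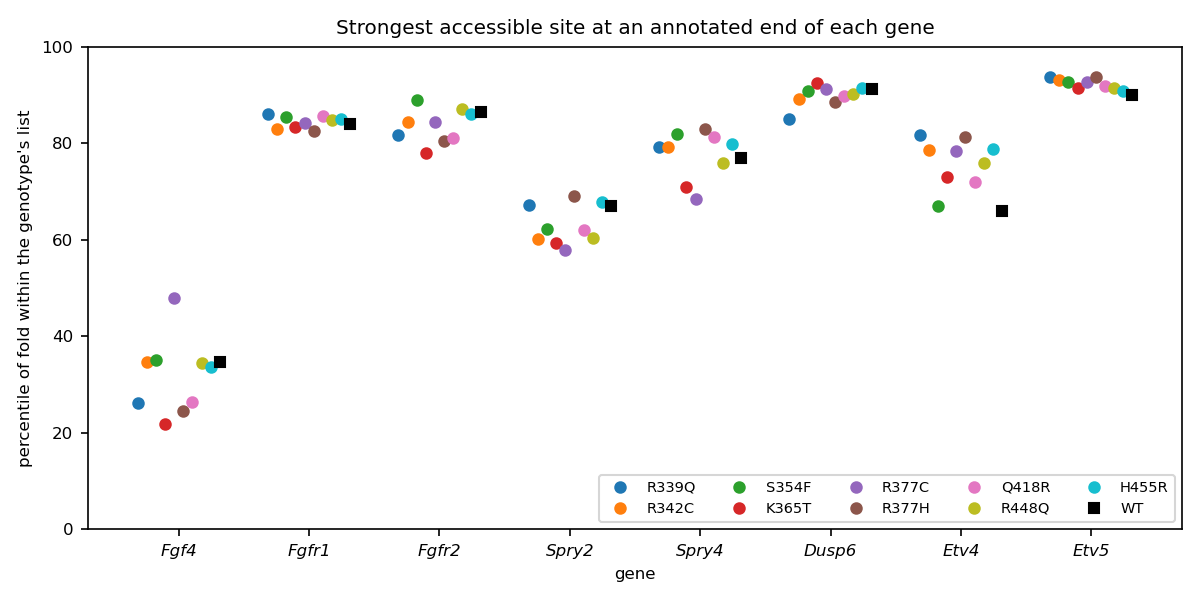
Percentile of the strongest gene-end site of each of the 8 genes (y axis, percentile of the authors' fold value within each list) in the 9 mutant lists and the WT list, 1 point per list. Etv5 sits at 90.0 or above in all 10 lists, Fgf4 at 47.9 or below, and Etv4 and Etv5 are higher in each mutant than in WT.

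The 150 bases before the start of 4 of these genes are shown for the range of sites they represent: Etv5 and Dusp6 with the strongest sites, Fgf4 with the weakest, and Fgfr2, where the peak lay inside the gene. The sequences are from RefSeq (GRCm38.p6, whose chromosomes are those of mm10), written 5′ to 3′ on the gene's strand, and capitals mark CCAAT or its reverse complement ATTGG, the letters of the box bound by NF-Y. Etv5 is on the minus strand (chr16:22439571-22439720), Dusp6 on the plus strand (chr10:99263081-99263230), Fgf4 on the plus strand (chr7:144861236-144861385) and Fgfr2 on the minus strand (chr7:130266809-130266958).
Etv5: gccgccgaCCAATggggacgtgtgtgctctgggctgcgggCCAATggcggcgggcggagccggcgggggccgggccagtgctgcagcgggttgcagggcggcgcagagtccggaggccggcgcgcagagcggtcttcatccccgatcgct
Dusp6: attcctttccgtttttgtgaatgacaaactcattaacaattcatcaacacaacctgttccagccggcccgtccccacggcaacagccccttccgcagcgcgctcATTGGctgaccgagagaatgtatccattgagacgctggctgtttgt
Fgf4: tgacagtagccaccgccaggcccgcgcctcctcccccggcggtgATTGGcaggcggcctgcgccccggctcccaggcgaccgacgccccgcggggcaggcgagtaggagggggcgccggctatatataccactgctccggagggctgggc
Fgfr2: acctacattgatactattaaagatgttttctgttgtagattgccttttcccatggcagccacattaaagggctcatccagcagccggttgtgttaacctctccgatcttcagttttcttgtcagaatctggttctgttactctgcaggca

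Over the 250 bases before the start, the GC content was 71.2% at Etv5 and at Fgf4, 56.4% at Dusp6 and 44% at Fgfr2, the last a percentile of 22.1 among 32851 RefSeq promoters. The Etv5, Dusp6 and Fgf4 stretches were covered by a peak over all 250 bases in each of the 10 lists, while 0 lists had a peak in the Fgfr2 stretch. Fgf4 and Etv5 thus had equally GC-rich stretches but stood at opposite ends of the order of percentiles. The Spry2 peak covered 39 to 92 of its 250 bases. CCAAT in either direction occurred 3 times in the Etv5 stretch, where 2.79% of promoters hold 3 or more, and once each in those of Dusp6 and Fgf4. It occurs in 33.8% of all promoters. The GC box GGGCGG, on either strand, occurred 3 times at Etv5 and 2 times at Fgf4, and occurs in 32.7% of promoters. Both motifs were chosen after the sequences had been seen. An ETS site (CCGGAAGT), the octamer (ATGCAAAT), a SOX site (CATTGTT), a CRE (TGACGTCA) and the CTCF core pattern, each on both strands, matched in 0 of the 6 stretches searched, which included Spry2 and a second Etv5 start. Over all promoters they occur in 2.88%, 1.60%, 3.29%, 1.55% and 2.07%. The second start of Etv5 (chr16:22438368) had a weaker site, at 14.6 to 43.2 in the mutants and 12.3 in WT, lower in WT than in each mutant.

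Most of the sites around the 8 genes were not at gene ends, and smaller shares of these sites were found in all 10 lists. Overlapping peaks of the 10 lists merged into 147 sites, 14 at gene ends, 59 elsewhere in gene bodies and 74 in the flanks. Of the gene-end sites 71.4% were present in all 10 lists, of the body sites 45.8% and of the flanking sites 36.5%. The classes also differed in strength, with median percentiles of 48.1, 15.4 and 9.45 (no peak counted as 0). The part of strength in these shares was not tested, and no genome-wide share of merged sites is given beside them. In all, 64 sites were in all 10 lists, 20 were in 1 list and 32 were not in the WT list.

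**Figure D2:**
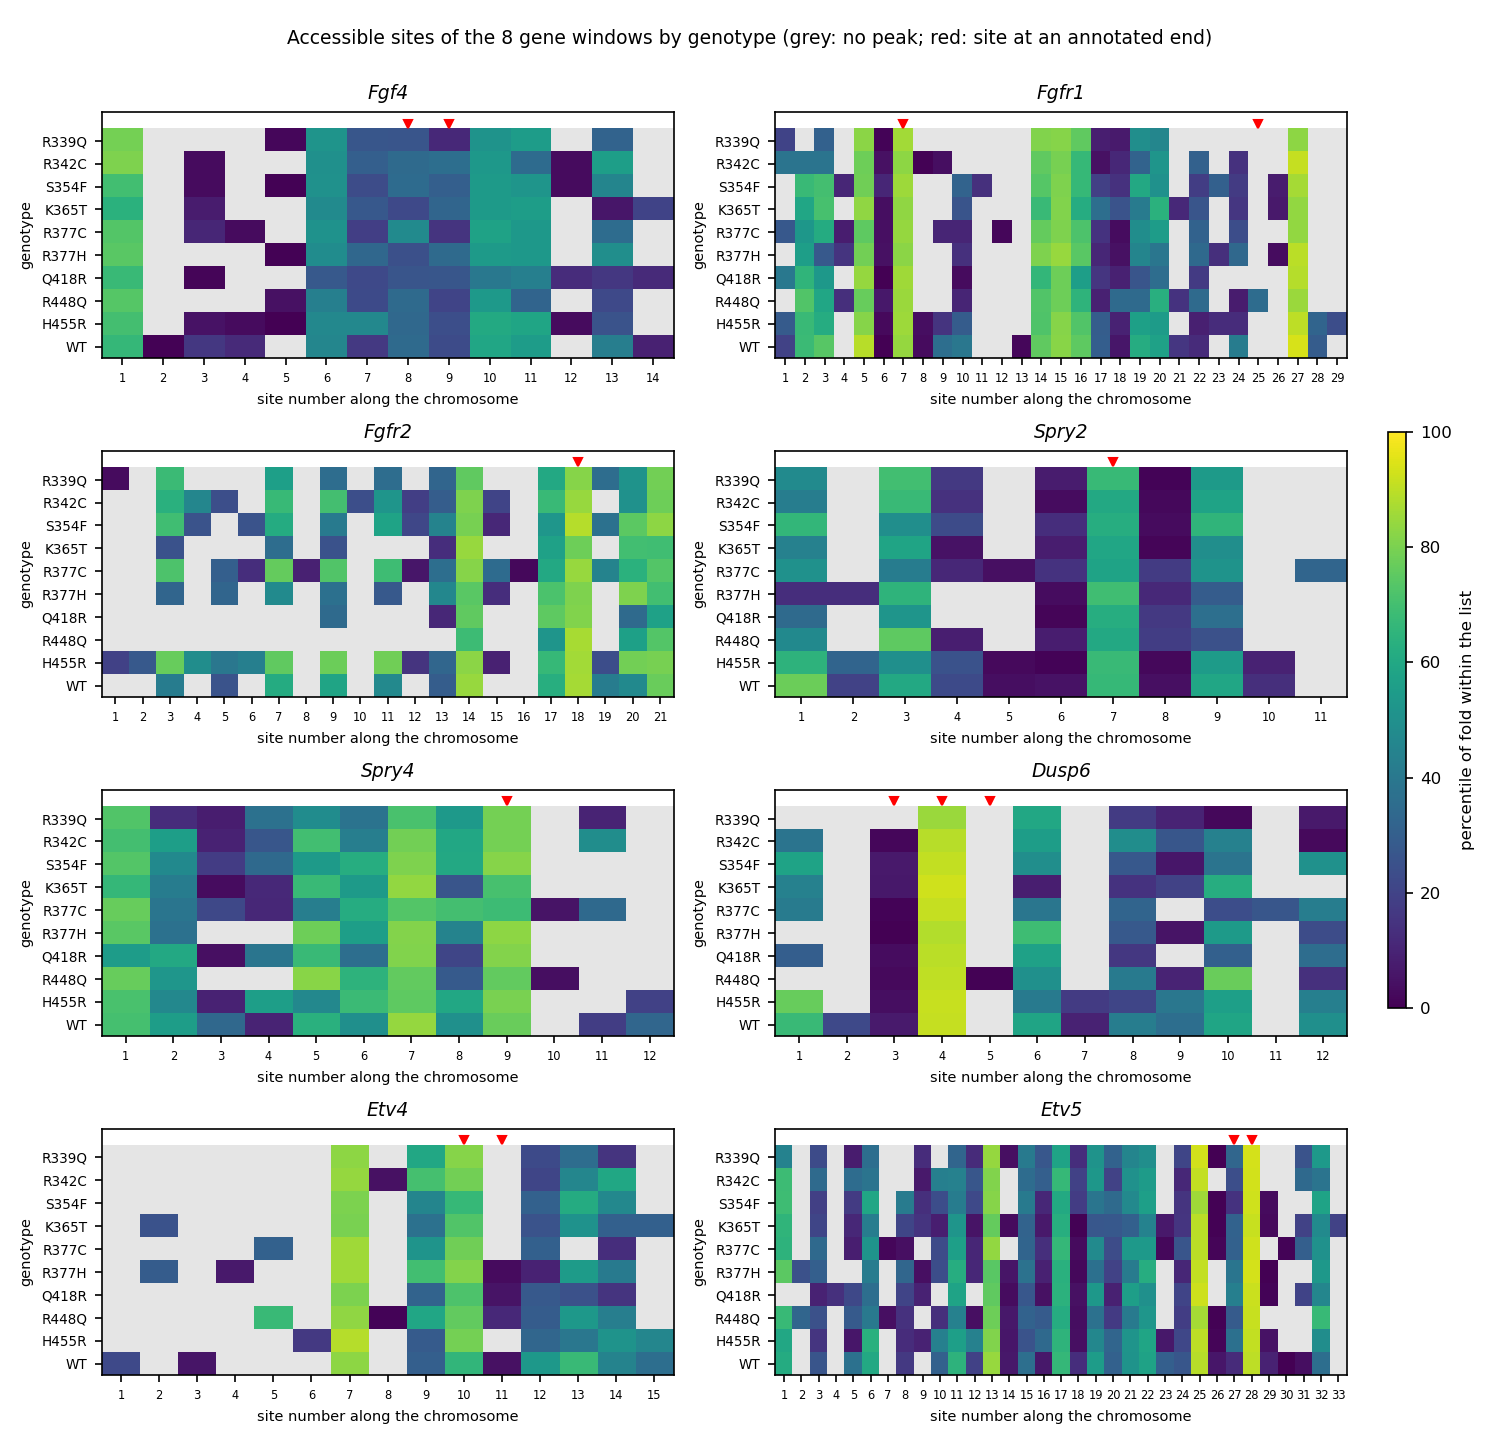
Percentile of each of the 147 sites of the 8 genes (columns, in order along each gene's window) in each mutant list and in the WT list (rows, WT at the bottom), with grey cells where the list had no peak and red marks above gene-end sites. The strongest gene-end site of each gene is filled in every list, and the Fgfr2 window has a stretch of grey cells in R448Q and Q418R.

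Of 1071 pairs of a WT peak and a mutant list, 240 (22.4%) were missing, against 26.5% over all WT peaks. Found in all 9 mutants were 64 of the 119 WT peaks (53.8%), against 48.5% of all WT peaks, and 5 (4.20%) were found in 0 mutants, against 5.42%. Many of the 119 peaks were weak, with a median WT percentile of 39.7, and all WT peaks weighted to the same strength bins would be missing in 32.5% of pairs. The bins divide the WT list by fold into 5 equal parts. In the weakest bin 45.4% of the genes' pairs were missing, against 57.5% of all pairs in that bin. With rising strength, the shares in the next bins were 32.0% against 44.7%, 7.56% against 24% and 4.04% against 6%. In the strongest bin 0 of 108 pairs were missing, against 0.39%. Whether this difference from all WT peaks exceeds chance was not tested. Over the 9296 gene windows with at least 10 WT peaks, taken with the same flanks, the median share of pairs missing was 25.3%. Their 5th and 95th percentiles were 11.1% and 42.2%. The windows of the 8 genes, taken singly, went from 13.9% (Etv5) to 35.6% (Etv4), within that range. It is a spread of single windows, so it is no measure for the 22.4%, which pools 8 windows.

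The share of missing WT peaks differed between mutants. H455R lacked 12 of the 119 WT peaks (10.1%, exact Clopper-Pearson 95% interval 5.32 to 17.0, counting error only), against 19.3% of all WT peaks. R377C lacked 20 (16.8%), against 20.9% of all. The counts were 24 in K365T (20.2%, against 28.3%), 26 in R342C (21.8%, against 26.1%) and 26 in S354F (21.8%, against 24.3%). R377H and Q418R each lacked 32 (26.9%), against 26% and 30.8% of all WT peaks, and R339Q and R448Q each lacked 34 (28.6%, 20.7 to 37.6), against 35.1% and 27.7%. The shares of R377H and R448Q were near those of all WT peaks, and below the 32.0% and 33.5% that all WT peaks weighted to the same strength bins would give. R339Q had the shortest list and H455R the longest of the mutants, and the order changed with lists cut to an equal length of 121032 peaks by fold. The WT list was cut too, which left 75 WT peaks in the windows. Of these the share missing was 6.67% in S354F, 10.7% in H455R and 13.3% in R339Q, R342C and R377C. It was 16% in K365T, 18.7% in R377H and Q418R, and 24% in R448Q. The matching shares of all WT peaks at equal length are not given here.

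**Figure D3:**
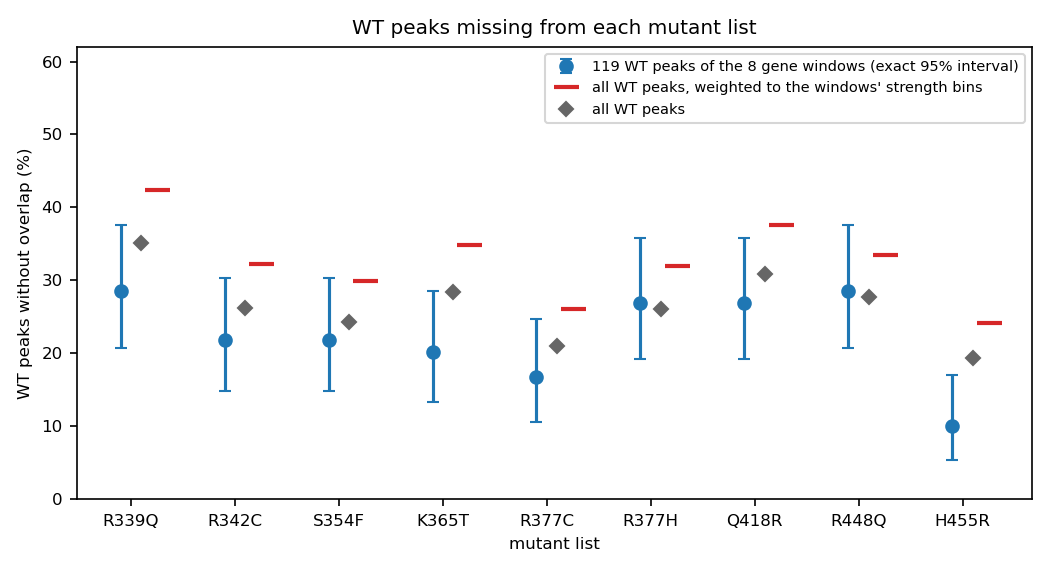
Share of WT peaks without an overlapping peak in each mutant list (y axis, %), for the 119 WT peaks of the 8 genes with exact 95% intervals for counting error, for all 171719 WT peaks, and for all WT peaks weighted to the same strength bins. H455R is lowest at 10.1%, and R339Q and R448Q are highest at 28.6%.

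Peaks without a WT counterpart numbered 77 of 918 mutant peaks (8.39%). R377C had 14 of 112 (whole list 10.8%), H455R 13 of 119 (13.1%), S354F 12 of 106 (8.82%) and R377H 10 of 100 (12.1%). R448Q had 9 of 91 (14.8%), R342C 7 of 102 (9.77%), R339Q 5 of 93 (7.14%), K365T 4 of 103 (8.94%) and Q418R 3 of 92 (7.97%). Where both lists had a peak, the median percentile difference, mutant minus WT, was -2.46 points over 831 pairs, against -3.12 over all shared pairs. With every list limited to its strongest 121032 peaks this median was 3.61, so its sign depends on list length. The mutant stood more than 20 points below WT in 112 of the 831 pairs (13.5%, against 15.6% of all shared pairs) and more than 20 points above it in 53 (6.38%, against 5.78%).

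The ligand gene Fgf4 (chr7:144861386-144865245) had 9 to 13 peaks in the mutants and 12 in WT, and 26 of 108 pairs (24.1%) were missing. Its strongest site lay outside the gene, 9.86 kb before the start (chr7:144851044-144852006), at 63.9 (K365T) to 80.8 (R342C) in the mutants and 66.8 in WT. A site 2.29 kb past the gene's end (chr7:144867044-144868027) stood at 39.9 (Q418R) to 60.5 (H455R) in the mutants and 59.0 in WT. At the 3′ end of Fgf4, where the known SOX2 and POU5F1 enhancer of the gene is found, a site (chr7:144864198-144865229) was present in all 10 lists at 11.5 (R339Q) to 36.1 (R342C) in the mutants and 22.8 in WT. Of the sites not found in every list, one absent from WT and present in 5 mutants (chr7:144857205-144857560) reached at most 4.54, and one seen in WT alone (chr7:144853590-144853808) stood at 0.591. Another (chr7:144878234-144878627) was found in K365T at 20.03 and in Q418R at 11.8 and stood at 9.30 in WT, and one (chr7:144855085-144855339) was found in R377C at 2.87 and in H455R at 2.75 and stood at 11.8 in WT. A site at 16.1 in WT (chr7:144853910-144854412) was missing from R339Q, R377H and R448Q.

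Of the receptor genes, Fgfr1 (chr8:25518759-25575718) had 14 (R339Q) to 23 (H455R) peaks in the mutants and 22 in WT, with 47 of 198 pairs (23.7%) missing. A site 3.03 kb beyond its upper end (chr8:25578284-25579221) was the strongest of the window, at 83.0 to 91.4 in the mutants and 94.0 in WT, highest in WT. The strongest site of the gene body (chr8:25543305-25543981) stood at 77.9 to 84.6 in the mutants and 82.1 in WT. A site 12.7 kb before the lower end (chr8:25505938-25506208) was missing from R339Q and stood at 38.4 (R342C) to 72.9 (R448Q) in the other mutants and 68.1 in WT. Chromosome 8 held a larger share of the peaks of R448Q and H455R, 1.17 and 1.19 times that of the median list. Within 1 Mb outside the window, the ratio was 1.18 in R448Q but 0.884 in H455R. The part of these shares in their counts at Fgfr1 was not tested.

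Fgfr2 (chr7:130162451-130266808, minus strand) showed the widest spread in number of peaks of the 8 genes, with most of its gene body free of called peaks in R448Q and Q418R. The window held 5 peaks in R448Q, 7 in Q418R, 10 in K365T and 13 to 18 in the other 6 mutants, and 13 in WT. R448Q lacked 8 of the 13 WT peaks (61.5%). A share that high was reached in R448Q by 1.22% of the 9296 gene windows with at least 10 WT peaks. This was the lowest of 72 such values, for each gene in each mutant, and whether it exceeds chance among so many was not tested. Q418R lacked 6 of the 13 (46.2%), a share reached by 11.5% of such windows in that mutant, while R377C and H455R lacked 0. K365T lacked 4, R377H 3, and R339Q, R342C and S354F 1 each.

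Most of these missing peaks, 5 of the 8 in R448Q and 4 of the 6 in Q418R, lay in a stretch of 71.4 kb of the gene body distal to the start (chr7:130170000-130241431), which was singled out after its values had been seen. Of 11 sites there, 0 had a peak in R448Q and 1 in Q418R, against 5 in WT. The numbers were 3 in K365T, 4 in R339Q, 5 in R377H, 7 in S354F, 8 in R342C, 8 in R377C and 9 in H455R. All 5 WT peaks of the stretch were missing from R448Q, where 34.2% of all WT peaks of the same strength range were missing, and 4 of 5 from Q418R, where 38.1% were. In R342C, R377C and H455R 0 of the 5 were missing. The mutants lay on both sides of WT, with fewer of these sites in R448Q, Q418R, K365T and R339Q, more in H455R, R342C, R377C and S354F, and as many in R377H.

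The strongest WT site of the stretch (chr7:130206079-130207549) lay 60.0 kb inside the gene from its start. It stood at 56.5 in R339Q, 67.4 in R342C, 61.6 in S354F, 35.6 in K365T, 76.2 in R377C, 47.8 in R377H and 75.7 in H455R, had no peak in Q418R and R448Q, and stood at 61.4 in WT. A second site (chr7:130236519-130237398) had no peak in K365T, Q418R and R448Q, stood at 27.8 (R377H) to 78.4 (H455R) in the other 6 mutants and at 46.9 in WT. A further site (chr7:130176859-130177995) was again without a peak in Q418R and R448Q, with 25.3 (K365T) to 76.8 (H455R) in the others and 42.1 in WT. The fourth (chr7:130215833-130216328) had no peak in R448Q, and stood at 34.5 in Q418R, 77.5 in H455R and 58.4 in WT. All 4 sites were at their highest or second highest percentile in H455R.

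Of the sites nearer the Fgfr2 start, some were present in every list and others were not. Besides the gene-end site, a body site 13.3 kb inside the gene (chr7:130252818-130254121) was present in all 10 lists, at 68.4 (R448Q) to 84.5 (K365T) in the mutants and 84.7 in WT. A site 11.2 kb before the start (chr7:130277583-130278368) stood at 57.2 (Q418R) to 82.8 (S354F) in the mutants and 77.0 in WT. A site 5.02 kb before the start (chr7:130271638-130272018) had no peak in R342C, K365T, R377H, Q418R and R448Q, stood at 23.6 (H455R) to 44.9 (R377C) in the other 4 mutants and at 42.1 in WT. A body site 14.8 kb inside the gene (chr7:130251586-130252517) had no peak in R448Q, and stood at 11.0 (Q418R) to 46.2 (R377H) in the other mutants and 29.5 in WT. WT peaks were also missing more often in the surroundings of the gene in these mutants. Within 1 Mb outside the window, R448Q lacked 90 of 200 WT peaks (45.0%), Q418R 86 (43.0%) and H455R 40. The share of a list's peaks in that region was 0.711 of the median list's in R448Q and 0.817 in Q418R, against 0.941 and 1.02 for the whole of chromosome 7, and the part of these surroundings in the Fgfr2 values was not tested. Background coverage was 5.45 in R448Q and 3.78 in Q418R, against 5.96 in WT, and its part in these values was not tested.

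**Figure D4:**
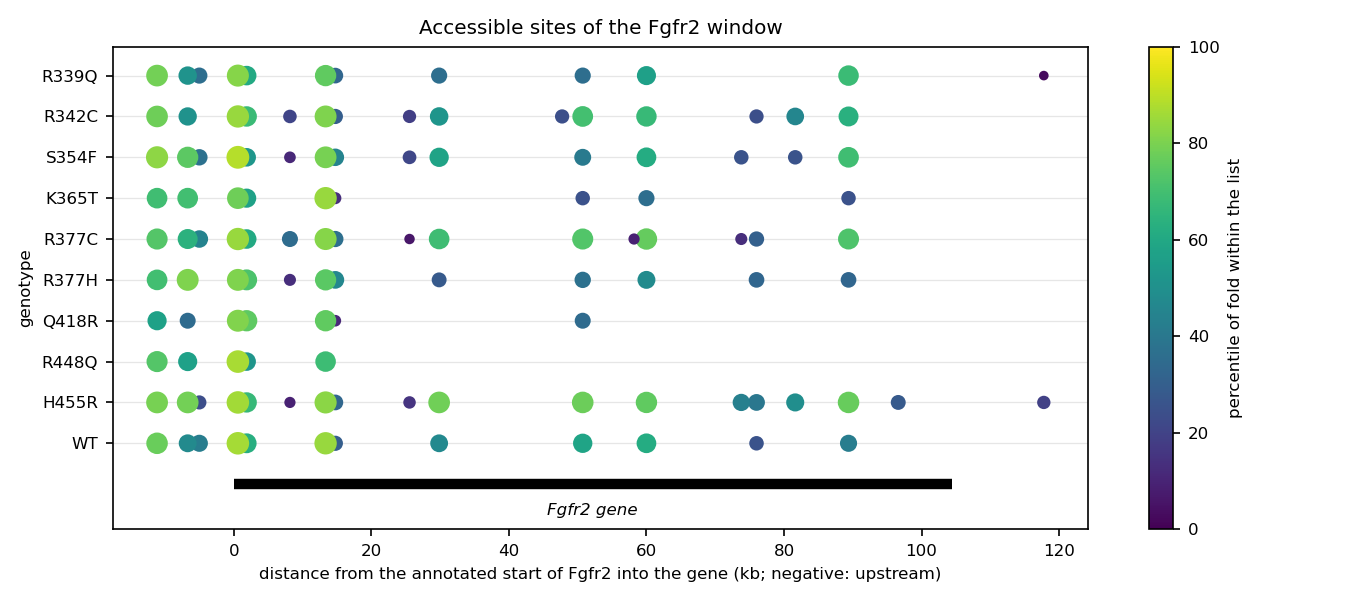
Peaks of the Fgfr2 window along the gene (x axis, distance from the start site in kb) in each mutant list and, at the bottom, in the WT list, with colour and point size giving the percentile within the list. The far part of the gene body holds 0 peaks in R448Q and 1 in Q418R, against 9 in H455R and 5 in WT, while the site at the start is present in all 10.

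Among the inhibitor genes, Spry2 (chr14:105891947-105896819, minus strand) had 6 to 10 peaks in the mutants and 11 in WT, and 25 of 99 pairs (25.3%) were missing, 0 of them in H455R. A site 6.64 kb past its end (chr14:105884822-105885792) stood at 42.1 (R377C) to 75.4 (R448Q) in the mutants and 60.4 in WT. A more distant site (chr14:105876807-105877546) stood at 13.0 (R377H) to 66.3 (S354F) in the mutants and 77.7 in WT, so WT was above each mutant.

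Spry4 (chr18:38586247-38601347) had 8 to 13 peaks in the mutants and 13 in WT, with 27 of 117 pairs (23.1%) missing. Its strongest site away from the ends lay in the body (chr18:38589788-38590811), at 71.3 (R339Q) to 83.8 (K365T) in the mutants and 84.2 in WT. A site in the flank (chr18:38611808-38612342), at 32.9 in WT, was found in H455R alone among the mutants, at 19.2.

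Dusp6 (chr10:99263231-99267489) had 6 to 9 peaks in the mutants and 10 in WT, and 24 of 90 pairs (26.7%) were missing. A site 19.1 kb before the start (chr10:99243855-99244439) was without a peak in R339Q, R377H and R448Q. It stood at 38.4 in R342C, 58.1 in S354F, 44.1 in K365T, 41.7 in R377C, 29.8 in Q418R and 76.6 in H455R, and at 67.7 in WT. The strong start of Dusp6 was thus kept in lists that had no peak at this distal site. A site 16.9 kb past the gene (chr10:99283974-99284846) spread most widely among those found in all 10 lists at this gene, at 1.98 (R339Q) to 77.1 (R448Q) in the mutants and 58.7 in WT.

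Of the ETS factor genes, Etv4 (chr11:101769747-101785310) had 6 to 9 peaks in the mutants and 10 in WT. The mutants with 9 were R377H, K365T and R448Q, in which chromosome 11 held 1.19, 1.11 and 1.07 times the median list's share of peaks, and the part of this in the counts was not tested. The gene had the largest share of missing pairs of the 8 genes, 32 of 90 (35.6%). All WT peaks of the same strength bins would give 31.0%. The median over the 9296 gene windows was 25.3%, and 85.4% of them were at or below the Etv4 share. The body held one strong site (chr11:101771917-101772944), at 80.1 to 88.7 in the mutants and 82.9 in WT. R377C lacked 5 of the 10 WT peaks (50%), a share reached by 1.3% of gene windows in that mutant, and 0 of the 3 in the gene body. The value of 1.3% was the next lowest of the 72 gene-by-mutant values, after that of Fgfr2 in R448Q. One of the 5 was a flanking site (chr11:101794716-101795237) at 25.0 (Q418R) to 61.6 (S354F) in the other mutants and 67.7 in WT. Another 2 (chr11:101752348-101752547 and chr11:101757540-101757837) were seen in WT alone, at 21.9 and 5.66.

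Etv5 (chr16:22381313-22439570, minus strand) had the most sites and the smallest share of missing pairs. It had 23 (R342C) to 30 (K365T) peaks in the mutants and 28 in WT, and 35 of 252 pairs (13.9%) were missing, where all WT peaks of the same strength bins would give 36.8%. Of the 9296 gene windows 9.99% had a share that low. A body site 10.4 kb inside the gene (chr16:22428557-22429764) was nearly as strong as the start, at 85.6 (S354F) to 93.1 (R339Q) in the mutants and 89.4 in WT. A second body site (chr16:22395045-22395628) stood at 74.3 (R377H) to 84.1 (R339Q) in the mutants and 84.5 in WT. A flanking site 15.7 kb beyond the 3′ end (chr16:22365267-22365986) was missing from Q418R alone, with 44.2 (R339Q) to 74.9 (R377H) in the other mutants and 61.4 in WT. One weak body site (chr16:22384222-22384773) was present in 7 mutants, at 4.15 to 15.1, and absent from WT.

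**Figure D5:**
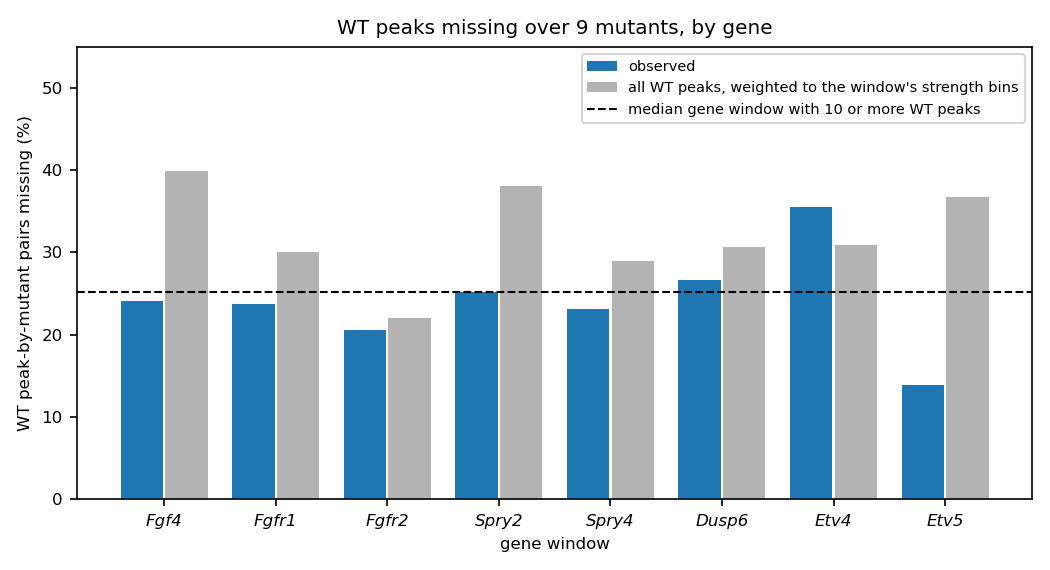
Share of WT peak-by-mutant pairs missing in each gene's window (y axis, %), as observed and as all WT peaks weighted to the same strength bins would give, with the median of 9296 gene windows as a dashed line. Etv4 is highest at 35.6% and Etv5 lowest at 13.9%, and Etv4 alone exceeds its weighted value.

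Gene ends of other pathway genes were examined in the same way. All 53 genes of a list of further ligands, receptors, adaptors, kinases, inhibitors and nuclear targets had a gene-end peak in WT, with a median percentile of 84.8, and 3 of 477 gene-by-mutant pairs (0.629%) were missing. The share was 3.54% over all protein-coding genes with a gene-end peak in WT. For all WT peaks of the strongest bin it was 0.39%, a share of single peaks and not of gene ends. The WT percentiles of the 53 genes went from 15.1 (Ier2) to 99.2 (Elk1), and the part of peak strength in the low count was not tested. Fgf1, another ligand gene, had no gene-end peak in H455R and stood at 19.9 (K365T) to 89.3 (R448Q) in the other mutants and 67.7 in WT. Map2k1, the gene of MEK1, had none in R377H and Q418R and stood at 6.25 (K365T) to 69.7 (H455R) in the others and 55.1 in WT. The 10 inhibitor genes on the list, such as Spry1 and Spred1, and the 12 nuclear targets, such as Egr1 and Fos, had 0 missing pairs.

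The number of peaks in each window, as a share of its list, was compared over the 10 lists with that of other genes, and the gene with the highest Pearson r is given for each. It was Elovl5 for Fgfr2 (r = 0.960), with 13 (Q418R) to 25 (R377C) peaks in the mutants and 21 in WT. For the others it was Ovol1 for Fgf4 (0.894), Ndufa13 for Fgfr1 (0.960), Gpd2 for Spry2 (0.972), Flywch1 for Spry4 (0.915), G6pc for Dusp6 (0.929), Tns3 for Etv4 (0.920) and Enkd1 for Etv5 (0.958). Each value is the highest of a search over 9282 genes, and the points share library depth. Ndufa13 lies on chromosome 8 with Fgfr1, and Tns3 on chromosome 11 with Etv4. The lists differed in their shares of peaks on these chromosomes, and the part of this in r was not tested.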

How the data were processed

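Omni-ATAC-seq was made from 20 samples, 10 genotypes with 2 replicates each, with 50000 cells per reaction and reads of 150 bp, per the labels' protocols. Trim Galore, Bowtie2, MACS2, deepTools and the build mm10 are named, without versions, in the submitters' processing notes; the sources used here do not state thresholds, duplicate handling or read shifting. The authors deposited 1 headerless peak list per genotype, called on both replicates together as its peak names show. Range and steps of the value per peak are those of MACS2 fold enrichment, the ratio of observed to expected coverage, which the authors made and which was used here only to rank peaks within a list. Read totals were not used here. Instead, 28.5% to 33.2% of the folds in a list were multiples of 1 step (tolerance 1.5e-05), which gives the background coverage of that list as 1 divided by the step, minus 1. The peak names of WT and K365T carry library codes 28 and 42 numbers apart and those of the other lists codes 1 apart; no source used here says what this marks.

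Genes were taken from RefSeq (GRCm38.p6). Peaks were compared by overlap and within-list percentile with Python 3.11.15, numpy 2.4.6, pandas 2.3.3 and scipy 1.17.1, and the code was tested on simulated data. Figures were drawn with matplotlib 3.10.9. Intervals are exact (Clopper-Pearson) 95% intervals and cover counting error only. The genes, lists, motifs and naming rule were chosen with earlier results of these data known. Named sites are, for each gene, the strongest gene-end site, the 2 strongest others, and sites missing from a mutant though in the stronger 40% of WT, from WT though in 5 or more mutants, or from 5 or more mutants though in WT (some of these last are given as counts only). The alternatives were an overlap of 50%, lists of equal length, other windows, stronger WT peaks, ranks within a chromosome and leaving out each gene.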

Additional observations from a re-analysis of the deposited data

How the results depend on the processing

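No value has a replicate error, and all comparisons share the WT list. No paired analysis was possible because each deposited list combines both replicates, and leaving out a replicate was not run for the same reason. Requiring an overlap of 50%, a flank of 50 kb or ranks within a chromosome left each summary within its counting interval (for counts, within 1.5 times). So did leaving out any gene other than Etv5, without which 25.0305% of pairs were missing. That is barely above the upper bound of 25.0269%, and the interval is too narrow because it treats the 9 mutant readings of each WT peak as independent. The count of gene-by-mutant pairs without a gene-end peak was 0 under each alternative run for it. Some of these cover fewer than the 72 pairs, as with the annotated start alone, known for 5 genes. With lists of equal length, 75 of the 119 WT peaks of the windows were left. Of their pairs 15.0% were missing, 13.3% in R339Q and R342C, 6.67% in S354F and 18.7% in R377H and Q418R. In this setting 140 mutant peaks lacked a WT overlap and the median percentile difference was 3.61. By construction it drops the weaker peaks of WT and of each mutant list but that of R339Q, and the part of this in the values was not tested. The gene body alone held 56 WT peaks, and 13.9% of their pairs were missing. The share was 19.6% in R339Q and R448Q, 12.5% in R342C and S354F and 10.7% in K365T. It was 7.14% in R377C, 14.3% in R377H and 3.57% in H455R. In this setting 38 mutant peaks lacked a WT overlap and 64.3% of WT peaks were in all 9 mutants. Among the stronger 50% of WT peaks, 47 lay in the windows and 2.13% of their pairs were missing. The share was 6.38% in R448Q, 4.26% in R339Q and Q418R and 2.13% in R377C and R377H. It was 0 in R342C, S354F, K365T and H455R. Of these WT peaks 87.2% were in all 9 mutants, and the median difference was -3.87. For the gene body the cause was not tested. The last setting keeps only stronger peaks by construction. Matching shares over all WT peaks or whole mutant lists are not given here for equal lists, the gene body alone or stronger WT peaks. Whether these values differ from those of other genes is therefore not shown.

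Alternatives for single windows were chosen after seeing the data. R448Q lacked 6 of 11 Fgfr2 peaks with equal lists, 7 of 10 in the gene body, 9 of 15 with 50 kb and 2 of 6 among stronger WT peaks. Q418R lacked 4 of 11, 5 of 10, 7 of 15 and 1 of 6. R377C lacked 3 of 7, 0 of 3, 7 of 20 and 1 of 4 Etv4 peaks, so that value rests on the flanks. For Etv5 12.5%, 9.44%, 14.8% and 1.11% of pairs were missing. The part of depth in the missing peaks was not tested.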
